A study of Mus musculus with 9 samples.

Results

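CD47 KO clone E5 of the Lewis lung carcinoma (LLC) line was compared with WT LLC across all expressed genes, using the 3 E5 libraries and the 3 WT libraries, 6 of the 9 in the series. The other 3 libraries come from a second KO clone, E3, whose values are given beside those of E5 where named. LLC is a mouse lung cancer line, here a luciferase-expressing derivative bought as such, so E5 and WT share the reporter. E5 is a single clone, expanded from cells electroporated with Cas9 protein and a guide RNA against Cd47, whereas the WT line is not described as a clone. All cells were grown as cultures in DMEM with fetal bovine serum, and mRNA was selected by its poly(A) tail before directional library preparation. Each line was sequenced as 3 independent cultures, so the p-values below measure the spread between cultures of 1 clone and 1 WT line, and loss of CD47 cannot be told apart from any other difference between this clone and the WT line. Of 50813 genes in the count table, 14098 passed the filter on low counts and were tested.

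The 6 libraries held 47378308 to 55095219 counts each, with 19406 to 20377 genes above 0. Replicates of a line differed by 7.08% (edgeR coefficient of variation) beyond counting noise, and no pair of replicates agreed within sampling noise. Of the lung and glandular epithelial markers, Nkx2-1, Epcam and the surfactant genes Sftpa1, Sftpb, Sftpc and Sftpd had 0 counts in every library, and Cdh1, which encodes E-cadherin, reached at most 6 counts. All 7 mesenchymal markers were above 1 CPM in both lines, CPM being counts scaled to the size of the library. Of 10 tested fibroblast markers, 6 were lower and 1 higher in E5 at the DEG limits defined below, Thy1 had 0 counts throughout, and the list summed to 2707 to 3001 CPM in WT and 3075 to 3408 CPM in E5, nearly all from Col3a1. The summed level of the epithelial marker list was 451 to 462 CPM in WT and 897 to 957 CPM in E5, nearly all of it from Krt8 and Krt18. Of 13 macrophage markers, 9 were at the floor of 3 counts in all 6 libraries, among them Csf1r, Adgre1 and the C1q genes, and the list summed to 14.3 to 15 CPM in WT and 24 to 25.3 CPM in E5, mostly through Cd14. Lymphocyte markers stayed at or below 0.128 CPM in sum. In bulk RNA a change in the share of cells that use a gene and a change in RNA per cell cannot be told apart.

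CD47 is a widely expressed membrane glycoprotein that signals "do not eat me" to macrophages through its receptor SIRPα, and that also binds thrombospondin-1 and integrins on the cell's own surface. LLC cells are driven by mutant RAS, which feeds the mitogen-activated protein kinase (MAPK) cascade to ERK, and ERK in turn drives immediate early genes and a set of feedback inhibitors. In epithelial-mesenchymal transition (EMT) carcinoma cells exchange keratins and E-cadherin for vimentin, N-cadherin, fibronectin and matrix-remodelling enzymes. The question behind the comparison is which of these functions differ between the clone and its WT line.

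The edit of E5 was aimed at exon 2 of Cd47. The guide below is shown because it defines the clone, and its only exact match on chromosome 16 of GRCm39 is at chr16:49688453-49688472 on the plus strand, inside the coding part of exon 2 (chr16:49688128-49688475). The capitals mark the PAM in the first line and the 20 guide-matched bases in the second, which adds 20 bases of genome on each side of the guide and PAM. The PAM ends on the last base of the exon.
Cd47 guide with PAM: tatagagctgaaaaaccgcaCGG
Cd47 genomic site: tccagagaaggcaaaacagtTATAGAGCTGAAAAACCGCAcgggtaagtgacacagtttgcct

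Cd47 itself (ENSMUSG00000055447.20, GRCm39 chr16:49620896-49735373) measured 185, 176 and 179 CPM in WT replicates 1 to 3 and 15.4, 18.4 and 17.8 CPM in E5 replicates 1 to 3. All 3 E5 libraries lay below all WT libraries. The log2 fold change was -3.39 ± 0.07 (SE, edgeR FDR 1.6e-10), so WT held 10.5-fold more Cd47 mRNA. In the fit of all 9 libraries, clone E3 was lower than WT by a log2 fold change of -2.03, and E5 lay below E3 (E5 minus E3 -1.36, FDR 2.8e-05), in a comparison of the clones in which 31.9% of genes passed. Among 13 tested ligands and partners of CD47, Itgb3, the integrin beta 3 chain, was the other differentially expressed gene (DEG), with WT values of 0.875, 1.10 and 1.16 CPM and E5 values of 0.128, 0.301 and 0.164 CPM (log2 fold change -2.40 ± 0.32, FDR 1.3e-04). Itgb1, the most abundant of them per length of transcript, measured 722 to 744 CPM in WT and 694 to 714 CPM in E5 and did not pass (FDR 0.38), and Thbs1, which encodes thrombospondin-1 and is named outside the rule, did not pass either (log2 fold change 0.12 ± 0.09, FDR 0.31).

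Genes were called DEGs at an FDR under 0.05 and a log2 fold change above 1 or below -1. By this rule 419 genes were higher in E5 (2.97% of those tested) and 796 were lower (5.65%). At an FDR under 0.05 with no limit on the fold change, 3307 genes were higher (23.5%) and 3289 lower (23.3%), and only these are described below as having risen or fallen. The groups of 3 libraries did not overlap, E5 above WT, for 27.8% of genes tested and, E5 below WT, for 28.4%. The falls reached further than the rises: with genes at the floor of 3 counts per library taken at their bound, 146 genes fell by more than 4 on the log2 scale and 1 rose by as much, while most changes in either direction (2115 rises and 1852 falls) were under 0.5. The DEGs lower in E5 had a median of 1.45 CPM in WT and 0.187 CPM in E5, and the higher ones 0.941 CPM in WT and 2.84 CPM in E5. With a requirement of 10 counts in every library, which drops genes silent in either line, the split became 295 higher and 336 lower.

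**Figure D1:**
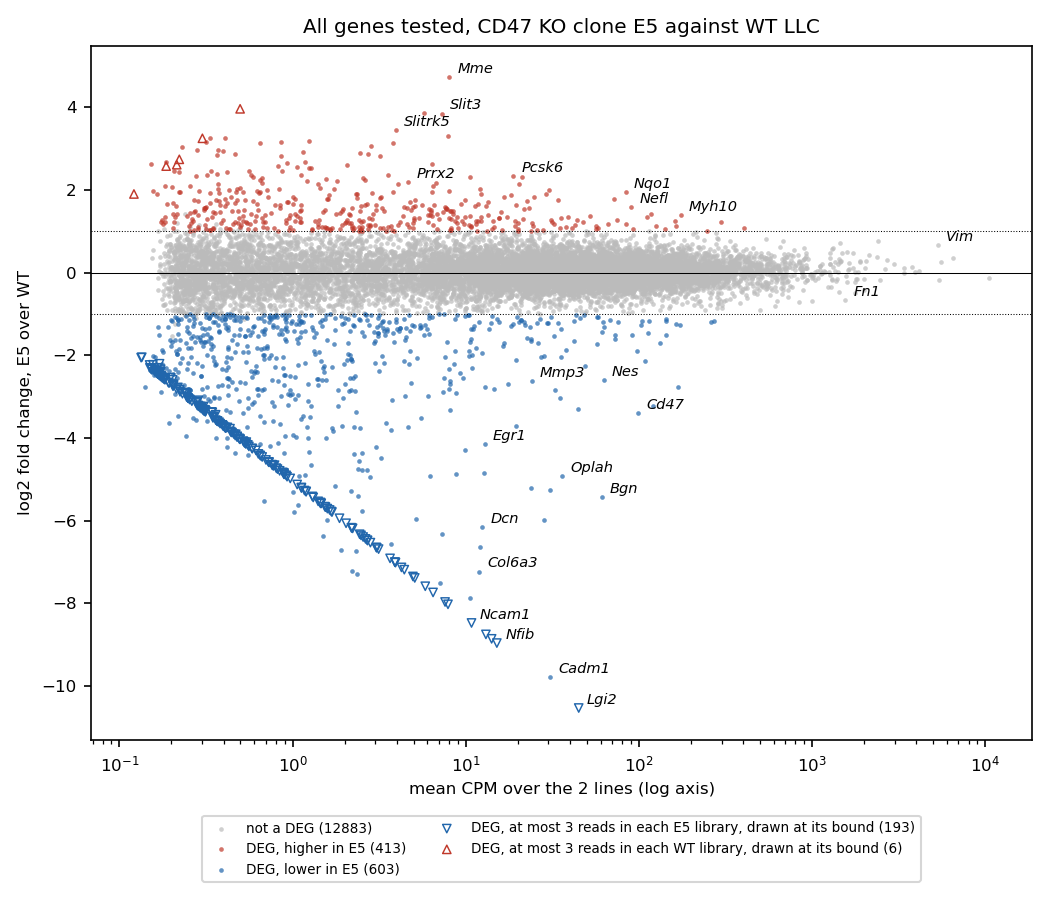
Each point is 1 of 14098 genes, with its mean CPM over both lines on a log axis and the log2 fold change of E5 over WT. Open triangles are genes with at most 3 reads in every library of a line, drawn at the smallest fold change that floor allows, and they run along the lower left edge, with Lgi2 the furthest out.

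Of the 796 lower DEGs, 193 were at the floor in E5, with at most 3 counts in each of its libraries (0.0608 CPM). They passed the filter through WT alone, so all of them had to differ, and their fold changes are given as bounds. Of these, 177 are protein-coding, 84 exceeded 1 CPM in WT and 25 exceeded 5 CPM. Only 6 DEGs were at the floor in WT. Lgi2, a secreted protein of the epilepsy-linked LGI family, measured 104, 86.3 and 79.5 CPM in WT and 0 in all 3 E5 libraries, and was thus at least 1478-fold lower. Nfib, a transcription factor needed for lung maturation, went from 31, 28.0 and 31.7 CPM to 0 (at least 498-fold lower). Chst2, a sulfotransferase that acts on N-acetylglucosamine, went from 27.1, 25.2 and 26.2 CPM to 0 (at least 430-fold lower). None of these genes gave a single read in E5, while all 3 were well measured in WT.

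Some of the deepest falls were in genes of cell-surface proteins. Cadm1, an immunoglobulin-type adhesion molecule, measured 60.2, 58.8 and 65.7 CPM in WT against 0.0641, 0.0645 and 0.0730 CPM in E5 (log2 fold change -9.78, FDR 6.9e-12). Few reads of Cadm1 remained in E5, so no SE is given for it. Ncam1, the neural cell adhesion molecule, had 21.1, 20.9 and 22.8 CPM in WT and 0, 0 and 0.0183 CPM in E5 (at least 355-fold lower). Tpbg, the oncofetal antigen 5T4, was at least 250-fold lower, and Jam3, a junctional adhesion molecule, at least 66.8-fold lower. Both were at the floor in every E5 library, and both lie on chromosome 9, as does Ncam1. The lists of adhesion genes did not fall as wholes. At an FDR under 0.05, 6 of 27 cadherin and junction genes rose and 8 fell (median 0.06). Of 36 integrin and focal adhesion genes 10 rose and 11 fell (median -0.03). Other genes chosen by the size of their fall were the X-linked Armcx2 and Tmem47 (at least 260-fold and 145-fold lower), Klhl3 (at least 128-fold), Rbms3, an RNA-binding protein (at least 120-fold), Arhgap32, Sesn3, Rgl3 and Mapkapk3 (at least 101, 100, 89.2 and 88.8-fold). Ptn, which encodes the growth factor pleiotrophin, fell from 27.6 to 29.1 CPM in WT to between 0.0215 and 0.0641 CPM in E5 (at least 463-fold lower).

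The promoters of Lgi2 and Chst2 are printed as those of 2 of the best-measured silent genes, with CG dinucleotides in capitals. They were picked with their CG content known and do not stand for the silent genes. Of the silent genes 69.4% had a promoter entry, and of all tested genes 70.1%. The median was 12 CG dinucleotides for the silent genes with an entry and 16 for all tested genes with one. It was 10 for the other lower DEGs and 11 for the higher DEGs. With so many genes lacking an entry, no conclusion is drawn. Each is the 250 bases before the RefSeq start on the minus strand in GRCm38.p6, at chr5:52566307-52566556 for Lgi2 and chr9:95407271-95407520 for Chst2. Lgi2 has 21 CG dinucleotides in this window and Chst2 has 27. Of 32851 RefSeq promoters of that length, 16.3% hold at least 21 and 8.56% at least 27. Methylation was not analysed here, and Nfib and Cadm1 had no entry in the promoter table.
Lgi2: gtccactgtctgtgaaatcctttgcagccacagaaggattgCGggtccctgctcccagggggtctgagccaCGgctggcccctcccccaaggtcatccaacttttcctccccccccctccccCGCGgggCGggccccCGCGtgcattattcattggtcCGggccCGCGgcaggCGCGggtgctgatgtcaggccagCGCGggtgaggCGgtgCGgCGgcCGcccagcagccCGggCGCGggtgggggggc
Chst2: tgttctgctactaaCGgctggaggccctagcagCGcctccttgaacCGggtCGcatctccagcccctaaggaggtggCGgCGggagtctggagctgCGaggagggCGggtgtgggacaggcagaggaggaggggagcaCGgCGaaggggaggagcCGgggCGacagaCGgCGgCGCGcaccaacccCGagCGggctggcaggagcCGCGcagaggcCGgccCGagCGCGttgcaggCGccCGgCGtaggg

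The silent genes were unevenly placed. Chromosome 9 held 43 of them among 765 genes tested (5.62%) and chromosome X held 34 among 437 (7.78%), and on no other chromosome did the share exceed 2.01%. Chromosome 9 also had the lowest median log2 fold change of any chromosome (-0.21), and 86 DEGs lower there stood against 6 higher. On chromosome X the median lay at 0.23, and 207 genes rose while 73 fell at an FDR under 0.05, but 50 DEGs there were lower against 9 higher. Along chromosome 9 the median was -0.16 to -0.27 in each stretch of 20 Mb from 0 to 120 Mb, and 0.02 over the 37 genes beyond, none of them silent. Of the 84 silent genes above 1 CPM in WT, 76 were over the floor in all 3 E3 libraries and 6 were at the floor in all 3. DNA copy number was not analysed here.

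**Figure D2:**
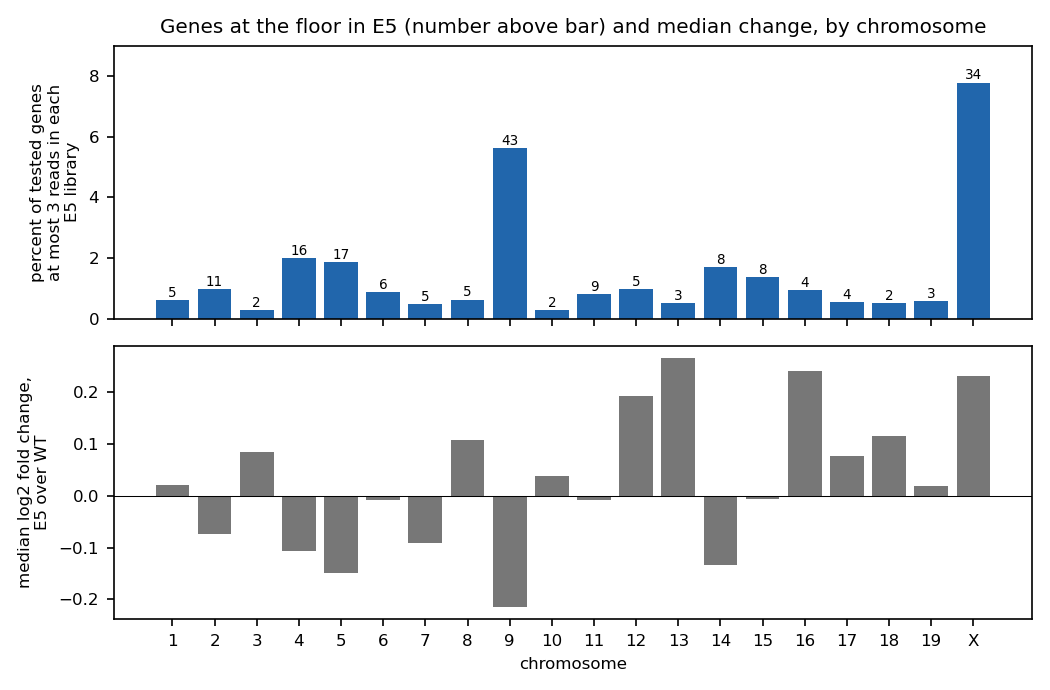
The upper bars give, for each chromosome, the percent of tested genes with at most 3 reads in every E5 library, with their number above each bar, and the lower bars give the median log2 fold change of E5 over WT. Chromosomes 9 and X stand out above, at 5.62% and 7.78%, while below they point in opposite directions.

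Gene lists were then read by function. The 3 largest shares of lower DEGs among lists of at least 10 tested genes were found in matrix proteases, small proteoglycans and collagens, and the bar plot of DEGs per list sets each beside the share over all genes. A member that passed the filter through a single line could only be called higher in that line, and such members are counted below for several lists. Genes outside the naming rule are introduced below as picked later, which means after their values had been seen.

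**Figure D3:**
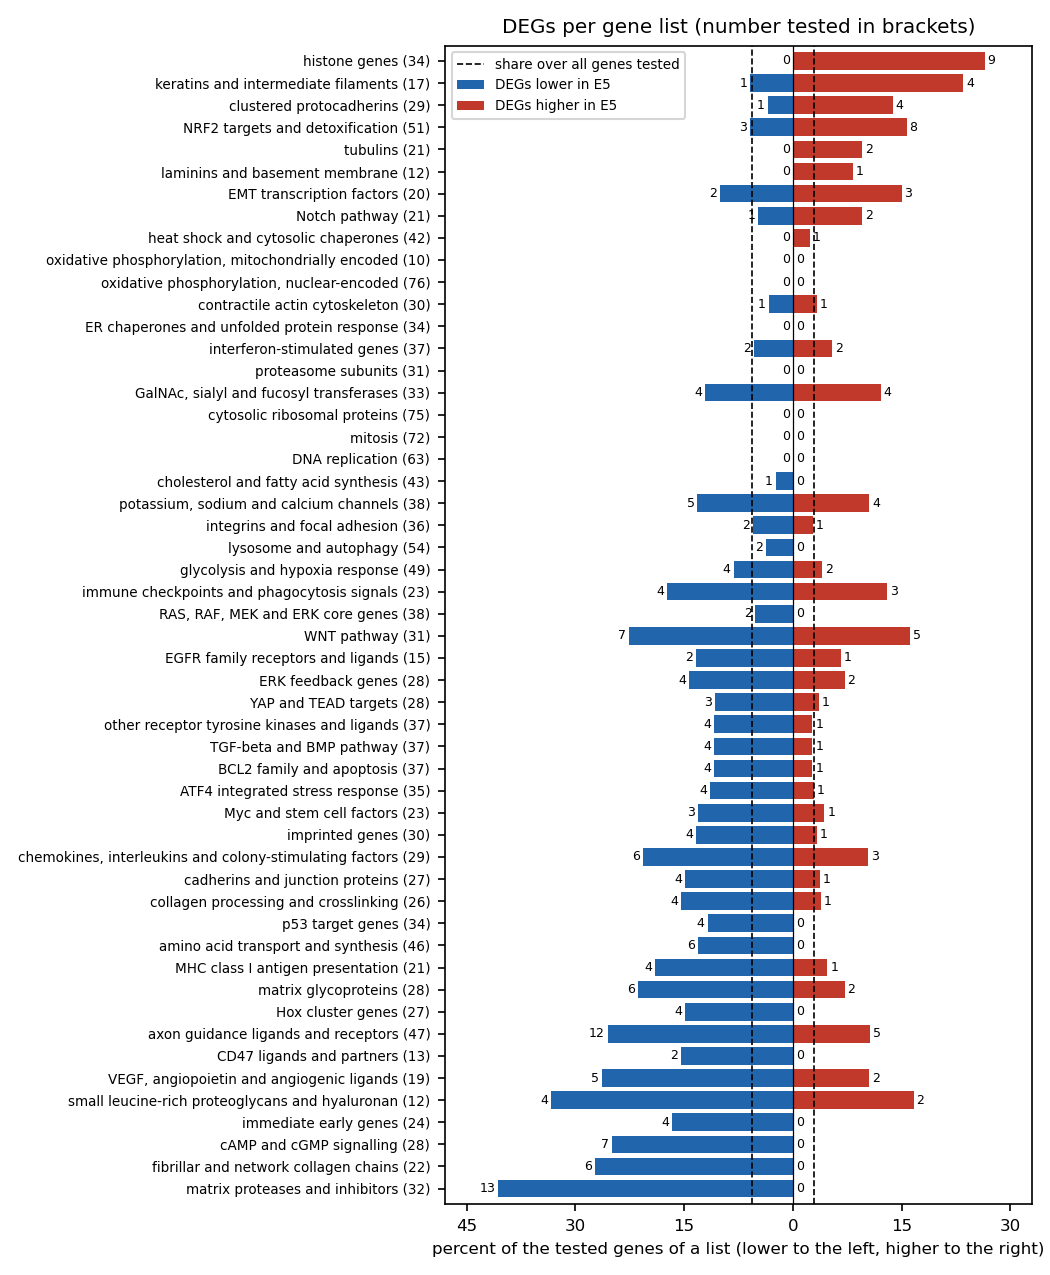
For each gene list with at least 10 tested members, the bars give the percent of members that were DEGs lower (left) and higher (right) in E5, with the number at the end of each bar, and the dashed lines give the shares over all 14098 genes, 5.65% and 2.97%. Matrix proteases (13 of 32) have the longest bar to the left and histone genes (9 of 34) the longest to the right.

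Fibrillar and network collagen chains, which build the matrix scaffold, had 6 lower and 0 higher DEGs among 22 tested, with a median log2 fold change of -0.44. Of these 22, 3 passed the filter through WT alone. The fibroblast markers above share Col1a1 and Col3a1 with this list and Dcn with the proteoglycans, and their part in these results was not tested. Col6a3, a chain of the microfibrillar collagen VI, measured 25.9, 22.5 and 22.7 CPM in WT and 0.171, 0.108 and 0.183 CPM in E5 (log2 fold change -7.23 ± 0.16, FDR 1.8e-10). Col4a5, a basement membrane chain, was at least 129-fold lower, and Col5a2 fell by 3.60 on the log2 scale. The remaining lower DEGs, picked later, were Col23a1, Col14a1 and Col1a1, the last of which measured 1.53 to 1.85 CPM in WT and 0.363 to 0.749 CPM in E5. The most abundant chain per length did not follow them. Col3a1 measured 2634, 2681 and 2944 CPM in WT and 3036, 3369 and 3177 CPM in E5 (log2 fold change 0.21 ± 0.08, FDR 0.045), and that rise missed the threshold without WT replicate 1 or 2 or without E5 replicate 2.

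Small leucine-rich proteoglycans, which decorate collagen, and hyaluronan genes moved in both directions. Bgn, or biglycan, is X-linked and measured 121, 117 and 119 CPM in WT and 2.63, 3.12 and 2.54 CPM in E5 (log2 fold change -5.43 ± 0.08, FDR 6.9e-12). Dcn, or decorin, measured 29.9, 22.8 and 21.3 CPM in WT and 0.214, 0.452 and 0.365 CPM in E5 (log2 fold change -6.15 ± 0.21, FDR 5.3e-09). Has2, a hyaluronan synthase, had 1.35 to 2.07 CPM in WT and no read in E5 (at least 27.7-fold lower). Ogn, another small proteoglycan, went the other way, from 5.41 to 7.37 CPM in WT to 18 to 22.4 CPM in E5 (log2 fold change 1.70 ± 0.12). The list as a whole had 4 lower and 2 higher DEGs of 12 and a median of 0.14, and 2 of the 12 passed the filter through WT alone. Among 28 matrix glycoproteins, 6 DEGs were lower and 2 higher, again with a median above 0 (0.13), and 2 of the 28 passed through WT alone. Fbn1, the microfibril protein fibrillin-1, fell from 124, 100 and 103 CPM to 33.5, 32.9 and 40.5 CPM, and Ccn3, a matricellular protein, from 45.6 to 50.1 CPM to 14.5 to 17.9 CPM. Emilin2 rose from 28.6 to 35.8 CPM to 97.2 to 120 CPM (log2 fold change 1.77 ± 0.10). Spp1, which encodes osteopontin and was the most abundant member per length, fell by 0.50 on the log2 scale.

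Matrix proteases and their inhibitors had 13 lower and 0 higher DEGs of 32 tested, with a median of -0.43, and 6 of the 32 passed the filter through WT alone. Mmp3, or stromelysin-1, which lies on chromosome 9, measured 39.1, 41.0 and 43.7 CPM in WT and 6.49, 7.29 and 6.34 CPM in E5 (log2 fold change -2.62 ± 0.08, FDR 2.2e-09). Adam19, a membrane-bound sheddase, had 2.65 to 3.08 CPM in WT and no read in E5 (at least 46.3-fold lower), and Reck, a membrane-anchored inhibitor of metalloproteinases, was at least 47.8-fold lower. Thus an inhibitor fell together with the enzymes. Among the members picked later, Plau, the urokinase plasminogen activator, fell from 157 to 181 CPM to 55.8 to 64.0 CPM, Mmp28 by 1.36, Mmp11 by 1.20 and Adamts1 by 1.14 on the log2 scale. Timp1, a soluble inhibitor picked later, rose by 0.61 ± 0.09, and Ctsl, the most abundant member per length, did not pass (FDR 0.084).

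Of 26 tested enzymes and chaperones that fold and crosslink collagen, 15 fell and 6 rose at an FDR under 0.05 (median log2 fold change -0.25), and 4 DEGs were lower with 1 higher. P3h2, a prolyl 3-hydroxylase, measured 16.7, 16.6 and 15.1 CPM in WT and 5.49, 4.52 and 5.11 CPM in E5 (log2 fold change -1.68 ± 0.10). Adamts14, a procollagen N-propeptidase, fell from 157 to 161 CPM to 61.2 to 79.1 CPM, and Adamts3, of the same activity, was at least 17.2-fold lower. Fkbp10, a collagen chaperone picked later, fell from 192 to 206 CPM to 85.3 to 93.7 CPM and completes the lower DEGs. Loxl2, a lysyl oxidase that crosslinks collagen, was the higher DEG, at 3.52 to 3.86 CPM in WT and 8.73 to 11.1 CPM in E5 (log2 fold change 1.43 ± 0.12). P4hb, the most abundant member per length and also a general disulfide isomerase, fell by 0.35 ± 0.07.

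Chaperones of the endoplasmic reticulum (ER), which fold secreted proteins and are induced by unfolded protein, held no DEG by the fold-change rule, yet 16 of 34 fell and 2 rose at an FDR under 0.05 (median -0.18). Without single libraries the falls numbered 16 to 20, and the rises 1 without E5 replicate 1 and 5 without E5 replicate 3. Picked later, Hspa5, the master ER chaperone BiP, measured 1290, 1210 and 1186 CPM in WT and 819, 714 and 740 CPM in E5 (log2 fold change -0.70 ± 0.07, FDR 2.5e-05), Pdia4 fell by 0.79 and Hyou1 by 0.76. Each E5 library was below each WT library for all 3 genes. Hsp90b1, the most abundant member per length, measured 1429 to 1492 CPM in WT and 1145 to 1389 CPM in E5 and did not pass (FDR 0.053). Many ER chaperone genes carry the ER stress response element (ERSE), searched here as a CCAAT box and a CCACG box 9 bases apart, on both strands of the 250 bases before each RefSeq start in GRCm38.p6. It was found in 9 of the 29 list members with a promoter entry (31%) and in 0.13% of all 27025 genes with an entry. The 9 members with the element had a median log2 fold change of -0.06 and the other members with an entry -0.18. Among members with an entry, those with these letters in this window thus did not fall further. Hyou1 had no entry and is not in this comparison. The promoter of Hspa5 (chr2:34771840-34772089, plus strand) is printed with its element in capitals.
Hspa5: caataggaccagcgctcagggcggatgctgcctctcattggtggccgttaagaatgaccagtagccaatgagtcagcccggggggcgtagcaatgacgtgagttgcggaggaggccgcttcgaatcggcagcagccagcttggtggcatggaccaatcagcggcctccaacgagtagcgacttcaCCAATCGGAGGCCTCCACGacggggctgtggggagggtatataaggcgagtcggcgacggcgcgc

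Genes of the integrated stress response, driven by the factor ATF4 when amino acids run short or protein synthesis is checked, had 4 lower and 1 higher DEGs of 35, and 15 fell while 5 rose at an FDR under 0.05 (median -0.24), the latter being 3 without E5 replicate 2. Slc7a3, a cationic amino acid transporter, fell from 47.3, 46.6 and 44.9 CPM to 1.24, 1.08 and 1.41 CPM (log2 fold change -5.21 ± 0.09, FDR 3.9e-11). Ppp1r15a, which encodes the phosphatase subunit GADD34, measured 170, 183 and 176 CPM in WT and 27.7, 39.1 and 52.5 CPM in E5, Nupr1 fell from 37.5 to 42.3 CPM to 8.80 to 14.6 CPM, and Ddit3, the factor CHOP, picked later, from 86.8 to 98.2 CPM to 26.5 to 56.5 CPM. Stc2, a secreted glycoprotein, was the higher DEG, at 1.41 to 1.99 CPM in WT and 10.6 to 11.5 CPM in E5 (log2 fold change 2.62 ± 0.13). Atf4 mRNA did not pass (log2 fold change -0.14 ± 0.06, FDR 0.085). Of 46 genes of amino acid transport and synthesis, 6 DEGs were lower and 0 higher, with Slc1a3, a glutamate transporter, at least 54.8-fold lower and Slc7a7 lower by 2.93 on the log2 scale. Slc7a5, the most abundant member per length and the light chain of the large neutral amino acid transporter, fell by 0.47 ± 0.13 (FDR 0.014), a call that was lost without WT replicate 3.

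Genes on the ERK feedback list fell more often than they rose. The list is wider than feedback inhibitors, as it also holds the cytokine Il11, the receptor Epha4 and the cyclin Ccnd1. Of 28 tested, 14 fell and 7 rose at an FDR under 0.05 (median -0.18). Spry2, a Sprouty protein that dampens receptor signalling to RAS, measured 97.3, 86.9 and 85.0 CPM in WT and 33.3, 32.7 and 33.4 CPM in E5 (log2 fold change -1.44 ± 0.06, FDR 3.0e-08). Spry1 fell by 1.36 ± 0.15. Il11, an interleukin-6 type cytokine, fell from 3.22 to 3.78 CPM to 0.817 to 0.897 CPM. Spry4 and Dusp6, picked later, fell by 1.11 and 0.66 on the log2 scale, and both are ERK feedback inhibitors. The number of rises was 4 without E5 replicate 2. The higher DEGs were Dusp9, an ERK phosphatase on the X chromosome, at 154 to 173 CPM in WT and 316 to 340 CPM in E5, and the receptor Epha4, picked later, which was at the floor in WT and at least 15.6-fold higher in E5. The change of Dusp9 (log2 fold change 1.01) lay at the DEG limit and was under it without E5 replicate 2 or 3 or WT replicate 1. Ccnd1, the most abundant member per length, fell by 0.24 ± 0.06. Mapk3, which encodes the kinase ERK1, fell by 0.13 ± 0.05 (FDR 0.037), and this call was lost on leaving out any single library. Among 38 core genes of the RAS, RAF, MEK and ERK cascade, Ksr2 and Rras2 were the DEGs, both lower, with log2 fold changes of -2.47 and -1.02, and 1 DEG remained without E5 replicate 3.

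Immediate early genes, which respond to growth factors within minutes, had 4 lower and 0 higher DEGs of 24. Egr1 measured 24.2, 22.9 and 25.8 CPM in WT and 1.69, 1.53 and 0.950 CPM in E5 (log2 fold change -4.14 ± 0.15, FDR 8.7e-09), and Atf3 fell from 38.3 to 47.4 CPM to 8.84 to 12.7 CPM. Klf4 fell by 1.37 ± 0.12, and Fos, picked later and under 0.5 CPM in every library, by 2.22 ± 0.50. Myc did not pass (536 to 635 CPM in WT, 653 to 715 CPM in E5, FDR 0.088), and Fosl1, a target of sustained ERK activity picked later, rose by 0.56 ± 0.09. The early genes thus did not move as a block, and the median of the list was -0.08.

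Several growth factors fell with them. Areg, or amphiregulin, a ligand of the EGF receptor, measured 49.3, 56.1 and 48.5 CPM in WT and 20.2, 19.5 and 20.5 CPM in E5 (log2 fold change -1.35 ± 0.07). Erbb3, a receptor of that family, fell by 2.22 ± 0.21, while Nrg2, a ligand for it, rose from 1.07 to 1.33 CPM to 3.69 to 5.73 CPM. Egfr, picked later, did not pass (FDR 0.16). Gdnf, the ligand of the RET receptor complex, fell from 13.5 to 14.4 CPM to 2.91 to 3.20 CPM, and the receptor Pdgfrb from 1.18 to 1.43 CPM to 0.237 to 0.347 CPM. In contrast Pdgfc, a ligand of the PDGF receptors, rose from 43.5 to 43.9 CPM to 103 to 109 CPM (log2 fold change 1.27 ± 0.05, FDR 1.3e-08). Among 19 angiogenic ligands, 5 DEGs were lower and 2 higher, and 3 of the 19 passed the filter through WT alone. Angptl2 rose from 51.8 to 69.9 CPM to 156 to 180 CPM and Apln, or apelin, from 17.1 to 19.7 CPM to 32.8 to 55.1 CPM, whereas Angptl4 and Angptl6 fell by 2.19 and 2.30 on the log2 scale. Of 37 genes of the TGF-beta and BMP pathway, 4 DEGs were lower and 1 higher, and 4 of the 37 passed the filter through WT alone. Bmp2 was at least 42.6-fold lower, and Lefty1, an inhibitor of Nodal, rose by 1.20 ± 0.22. Of 31 WNT genes 7 DEGs were lower and 5 higher, and 3 of the 31 passed the filter through WT alone. Notum, a secreted WNT-inactivating enzyme, Wnt5a and the receptor Fzd8 rose by 1.97, 1.57 and 1.45, and the decoy receptor Frzb, Wnt7b and Fzd6 fell by 2.67, 1.26 and 1.23 on the log2 scale.

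Of 47 axon guidance ligands and receptors, 12 DEGs were lower and 5 higher (median -0.06). Semaphorins are guidance cues best known from growing axons. Sema3f, encoded on chromosome 9, measured 16.2, 17.1 and 17.7 CPM in WT and 0.662, 0.452 and 0.621 CPM in E5 (log2 fold change -4.87 ± 0.13, FDR 1.1e-09). Sema3a fell from 86.7, 75.9 and 79.5 CPM to 15.9, 17.9 and 16.7 CPM (log2 fold change -2.26 ± 0.07, FDR 2.4e-09) and Sema4d by 2.96 ± 0.42. On the other side Slit3, a ligand of ROBO receptors, rose from 0.815, 0.912 and 1.10 CPM to 13.2, 13.6 and 14 CPM (log2 fold change 3.85 ± 0.12, FDR 3.4e-09). Unc5a, a netrin receptor, rose by 1.11 and Efna1, an ephrin, by 1.55. Unc5b, the most abundant member per length, rose by 0.28 ± 0.07.

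**Figure D4:**
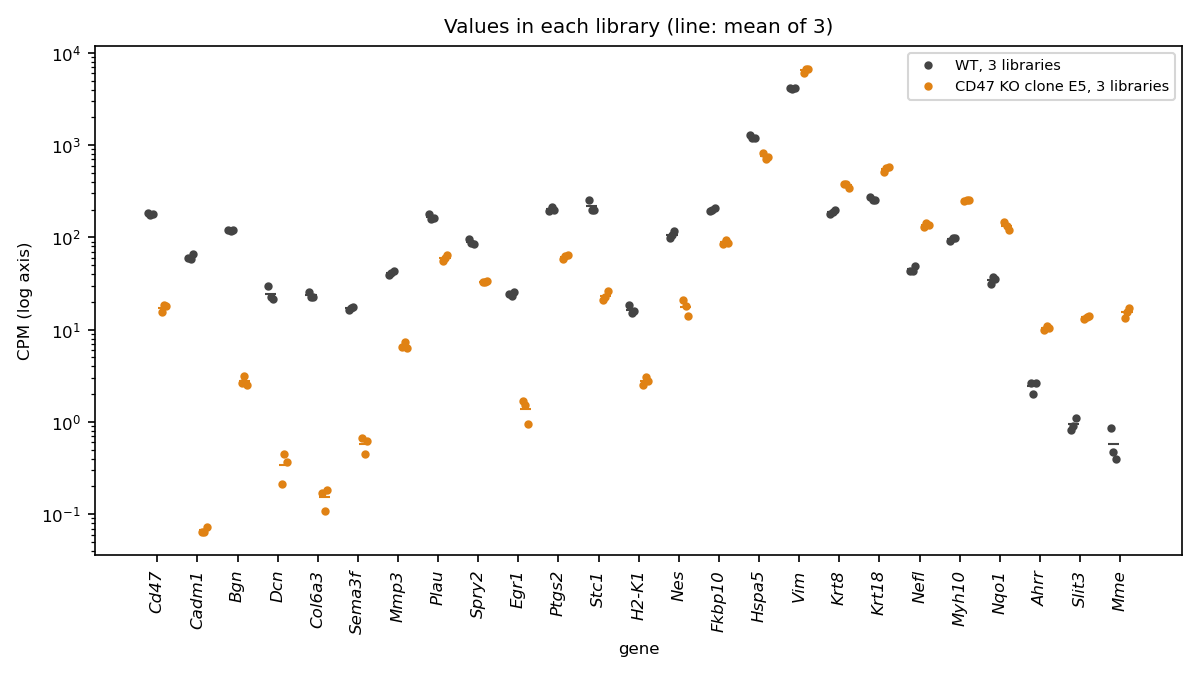
Each point is 1 library, in CPM on a log axis, for 25 genes described in the text, and the short lines are the means of 3 libraries. For every gene drawn the WT and E5 points do not overlap, with Cadm1 and Col6a3 the furthest apart among the falls and Mme and Slit3 among the rises.

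The usual markers of EMT did not share a direction. Vim, the mesenchymal filament vimentin and the most abundant intermediate filament gene per length, measured 4119, 4069 and 4151 CPM in WT and 6042, 6730 and 6748 CPM in E5 (log2 fold change 0.66 ± 0.08, FDR 7.9e-05). Fn1, or fibronectin, measured 2229, 1752 and 1735 CPM in WT and 907, 1158 and 1558 CPM in E5 (log2 fold change -0.66 ± 0.17, FDR 0.0082), with its E5 libraries spread widely but still below WT. Cdh2, or N-cadherin, rose by 0.26 ± 0.08 (FDR 0.018), a call lost without 4 of the 6 libraries left out singly (WT replicate 1 or 2, E5 replicate 1 or 2). Cdh1 was too low to test. Twist1 did not pass (50.4 to 53.3 CPM in WT, 53.8 to 55.6 CPM in E5, FDR 0.28). Prrx2, a mesenchymal homeobox factor, rose from 1.49, 1.72 and 1.79 CPM to 9.49, 7.33 and 6.12 CPM (log2 fold change 2.19 ± 0.18, FDR 3.9e-06), against 2.23 in clone E3. Of 20 EMT transcription factors, 3 DEGs were higher (Prrx2, Foxq1 and, picked later, the epithelial factor Grhl2) and 2 lower (Klf4 and Klf8, the latter at least 25.1-fold). Hmga2, the most abundant of them per length, did not pass (FDR 0.059).

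Intermediate filament genes, keratins included, rose more often than they fell: 12 of 17 rose and 1 fell at an FDR under 0.05, with a median of 0.66. Nefl, the light neurofilament, measured 43.1, 43.1 and 48.7 CPM in WT and 128, 143 and 136 CPM in E5 (log2 fold change 1.59 ± 0.07, FDR 2.3e-08). The keratin pair Krt8 and Krt18, picked later, rose from 182 to 197 CPM to 345 to 380 CPM and from 255 to 273 CPM to 512 to 576 CPM, so epithelial keratins and vimentin rose in the same cultures. Krt80 and Ppl, a cytolinker, rose by 1.24 and 1.09. Nes, or nestin, alone fell, from 99.1, 106 and 117 CPM to 21, 17.9 and 14.1 CPM (log2 fold change -2.61 ± 0.12). The list held 4 higher DEGs, which became 7 without E5 replicate 3. Of 21 tubulins 11 rose and 3 fell (median 0.27), and 3 rose with all 9 libraries in the fit. Tubb5, the most abundant per length, measured 1044 to 1131 CPM in WT and 1696 to 1865 CPM in E5 (log2 fold change 0.72 ± 0.07), and Tubb3 and Tuba1a rose by 1.27 and 1.05. Myh10, a non-muscle myosin heavy chain, rose from 91.8, 99.7 and 98.0 CPM to 247, 256 and 253 CPM (log2 fold change 1.38 ± 0.05, FDR 1.3e-08), while the smooth muscle actin Acta2 fell from 1.17 to 2.02 CPM to 0.0641 to 0.110 CPM. Among 27 cadherin and junction genes, 4 DEGs were lower and 1 higher, with a median of 0.06, and 3 were higher without WT replicate 3. Jup, or plakoglobin, fell by 2.13 and Nectin1 by 1.96, and Ctnnb1 did not pass (FDR 0.54).

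Genes of class I presentation and of immune checkpoints fell more often than they rose, and chemokine genes did not. Of 21 genes of MHC class I presentation, 9 fell and 5 rose at an FDR under 0.05. H2-K1, a classical class I heavy chain, measured 18.4, 15.3 and 15.7 CPM in WT and 2.54, 3.03 and 2.81 CPM in E5 (log2 fold change -2.56 ± 0.11, FDR 3.1e-08), and Nlrc5, the class I transactivator, fell by 2.12 ± 0.23. The non-classical H2-T23 rose by 1.04, and its change was under the DEG limit without E5 replicate 3. Class I genes are close relatives, and how reads shared between them were counted is not given in the sources used here, so single members are uncertain. Of 23 checkpoint and phagocytosis genes, 13 fell and 5 rose (median -0.30). Ulbp1 and Raet1d, ligands of the activating receptor NKG2D, fell from 12.8 to 15 CPM to 1.81 to 2.10 CPM and from 3.57 to 3.82 CPM to 0.511 to 0.812 CPM. Lrp1, the receptor that reads calreticulin as an engulfment signal and also a broad endocytic receptor, rose from 171 to 189 CPM to 382 to 470 CPM, and Nt5e, the adenosine-forming CD73, from 0.125 to 0.207 CPM to 1.46 to 1.61 CPM. Among 29 chemokine, interleukin and related genes 6 DEGs were lower and 3 higher, while 11 rose and 6 fell at an FDR under 0.05. Ptgs2, the inducible cyclooxygenase, fell from 195, 211 and 200 CPM to 58.9, 62.2 and 63.8 CPM (log2 fold change -1.71 ± 0.06, FDR 4.1e-09), and Cxcl16 by 3.54 ± 0.26. Il1rl1, the receptor of interleukin-33, rose by 1.34 ± 0.06. Ccl2, the most abundant chemokine per length, did not pass (29.1 to 48.1 CPM in WT, 36.3 to 66.8 CPM in E5).

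Detoxification genes rose more often than they fell. Of 51 tested NRF2 targets and xenobiotic enzymes, 26 rose and 11 fell at an FDR under 0.05 (median 0.28), with 8 DEGs higher and 3 lower. Nqo1, a quinone reductase, measured 31.1, 37.2 and 35.4 CPM in WT and 146, 133 and 120 CPM in E5 (log2 fold change 1.94 ± 0.09, FDR 3.4e-08). Akr1c14, an aldo-keto reductase, rose by 2.83 ± 0.24, and Cyp1b1, a cytochrome P450, from 0.199 to 0.332 CPM to 2.03 to 2.56 CPM. Gstm1, a glutathione transferase picked later, rose from 100 to 105 CPM to 218 to 233 CPM. Not every NRF2 target followed: Txn1, the most abundant member per length, did not pass (FDR 0.54), and Hmox1, picked later, fell by 0.46 ± 0.12.

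Nqo1 and Cyp1b1 are also textbook targets of the aryl hydrocarbon receptor, a ligand-activated transcription factor, and a list of 10 such genes was therefore added after the values were seen. Of its 7 tested members 6 were DEGs, all higher. Nqo1 and Cyp1b1, whose rise prompted the list, are among the 6, so the list is a description only. Ahr itself measured 10.0, 9.12 and 10.4 CPM in WT and 25.1, 23.5 and 26.3 CPM in E5 (log2 fold change 1.34 ± 0.08). Ahrr, its repressor and target, rose from 2.62, 2.03 and 2.66 CPM to 10.0, 10.9 and 10.3 CPM (log2 fold change 2.10 ± 0.12), and Tiparp from 74.6 to 82.9 CPM to 167 to 178 CPM. Arnt, the partner subunit, rose by 0.22 ± 0.05. The Ahrr promoter (GRCm38.p6 chr13:74292332-74292581, minus strand) holds the core of the receptor's response element, GCGTG searched on both strands, 3 times, in capitals below. Of all 32851 promoters, 2.77% hold it at least 3 times. This promoter is a picked example and does not stand for the list. Of the 7 tested members 5 had a promoter entry, too few for a comparison. The core was held by 4 of these 5, and by 30.9% of all 27025 genes with an entry. The median log2 fold change was 1.61 for the 4 with the core, and the single member without it had 1.94.
Ahrr: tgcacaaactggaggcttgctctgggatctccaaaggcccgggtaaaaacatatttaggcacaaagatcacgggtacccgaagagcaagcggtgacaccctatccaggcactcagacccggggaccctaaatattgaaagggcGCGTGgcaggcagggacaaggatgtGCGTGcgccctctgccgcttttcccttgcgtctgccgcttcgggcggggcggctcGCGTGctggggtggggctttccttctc

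Genes of growth and division shifted up by small amounts, with no DEG among 72 mitotic or 63 DNA replication genes. Of the mitotic genes 36 rose and 5 fell (median 0.20), the falls being 3 without E5 replicate 2. Mki67, the proliferation antigen Ki-67, picked later, measured 261, 264 and 309 CPM in WT and 473, 411 and 438 CPM in E5 (log2 fold change 0.67 ± 0.08), whereas Top2a, the most abundant per length, did not pass (FDR 0.054). The summed mitotic level was 8245, 8668 and 9025 CPM in WT and 11060, 10523 and 9466 CPM in E5, so E5 replicate 3 lay nearest to WT. Without that library 57 of 72 mitotic genes rose, and with all 9 libraries in the fit 10 did. Of the 62 mitotic genes with a promoter entry, 23 (37.1%) held the letters TTTGAA of the cell-cycle homology region on either strand, against 18.3% of all genes with an entry, and the medians were 0.28 with and 0.17 without it. Of the replication genes 19 rose and 3 fell (median 0.14), 33 rose without E5 replicate 3, and 7 fell without E5 replicate 1. Pcna, the most abundant per length, did not pass (FDR 0.54).

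Sterol and fatty acid synthesis behaved alike: 18 of 43 genes rose and 3 fell (median 0.25), with 28 rises without E5 replicate 3 and 6 falls without E5 replicate 1. Insig1, a sterol-responsive ER protein picked later, measured 99.5, 87.2 and 88.7 CPM in WT and 139, 137 and 135 CPM in E5, while Scd2, the most abundant per length, overlapped between the lines (952 to 1214 CPM in WT, 1023 to 1743 CPM in E5, FDR 0.043), and its call was lost without any 1 of WT replicates 1 and 2 or E5 replicates 1 and 2. Fads3, a desaturase-like gene, was the single DEG, lower, from 84.9 to 93.5 CPM to 32.6 to 38.2 CPM. Of 76 nuclear genes of oxidative phosphorylation 25 rose and 6 fell (median 0.11), which became 3 and 0 with all 9 libraries in the fit, and the falls numbered 2 without WT replicate 2. Atp5f1b, the most abundant, rose by 0.29 ± 0.07, and the mitochondrially encoded mt-Co1 did not pass (FDR 0.10). Of 42 heat shock and cytosolic chaperone genes 14 rose and 7 fell, which became 9 and 3 without WT replicate 2. Hspa8, the constitutive HSC70, picked later, rose from 2045, 1706 and 1588 CPM to 3072, 2936 and 3091 CPM, and Hspa4l from 86.7 to 103 CPM to 215 to 241 CPM, and with all 9 libraries in the fit 7 rose and 1 fell. Of 54 lysosomal and autophagy genes, 22 fell and 11 rose. Of 31 proteasome subunits, 8 rose and 4 fell, or 1 without WT replicate 2.

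**Figure D5:**
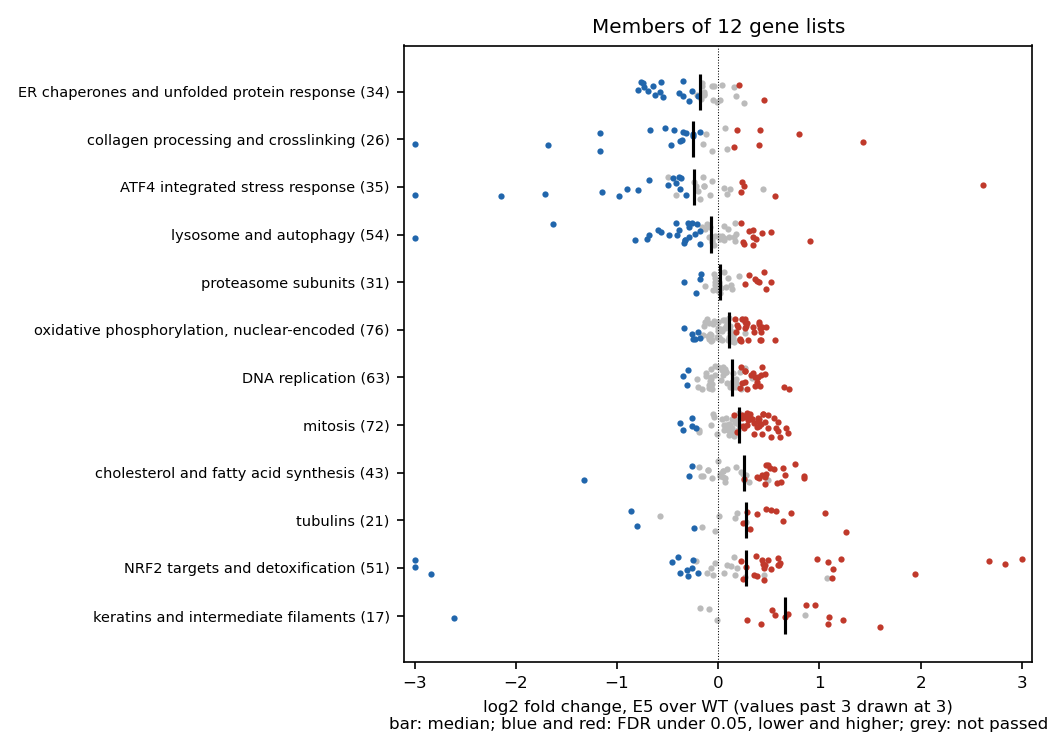
Each point is a member of 1 of 12 gene lists, placed by its log2 fold change of E5 over WT, drawn at 3 if further out, blue or red where it passed an FDR of 0.05 and grey where it did not, and the bars are list medians. The medians run from -0.25 for collagen processing to 0.66 for keratins and intermediate filaments.

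Histone genes had 9 higher and 0 lower DEGs of 34, and the higher count ran from 6 to 17 when single libraries were left out (17 without E5 replicate 3). At an FDR under 0.05, 15 rose and 2 fell, while their summed mean level was 1868 CPM in WT and 1874 CPM in E5. The list mixes replication-dependent genes and variants. The mRNAs of the former mostly lack a poly(A) tail and are poorly sampled by this library type. H4c9 rose from 2.54 to 3.78 CPM to 7.07 to 11.2 CPM and H2ac8 and H3c3 by 1.51 and 1.93, whereas H2az1, a variant with a polyadenylated mRNA, rose by 0.20 ± 0.07, a call lost without WT replicate 2 or 3 or E5 replicate 1 or 2. Among clustered protocadherins, 4 DEGs of 29 were higher and 1 lower. Pcdhb20, Pcdhb21 and Pcdhb22, neighbours in the beta cluster, rose by 1.5, 1.62 and 1.38, and Pcdhgb6 fell by 1.19. Histone and protocadherin genes have near-identical copies, so reads may have been split among them.

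Cell death and metabolic genes added named falls. Of 37 genes of the BCL2 family and apoptosis, 4 DEGs were lower and 1 higher, the latter count being 0 without E5 replicate 3. Of these 37, 3 passed the filter through WT alone. The lower DEGs were all on chromosome 9: Birc3, an inhibitor of apoptosis (at least 36.6-fold), the inflammatory caspases Casp4 (at least 19.7-fold) and Casp1 (log2 fold change -3.67 ± 0.33), and Casp12, picked later (-2.71 ± 0.19). Stc1, the secreted stanniocalcin-1 and a hypoxia-responsive gene, measured 252, 199 and 200 CPM in WT and 21, 22.3 and 26.0 CPM in E5 (log2 fold change -3.23 ± 0.11, FDR 4.5e-09). Car12, a carbonic anhydrase, fell by 5.62 and Ldhb by 2.85, whereas Gapdh did not pass (FDR 0.22), and of 49 glycolytic and hypoxia genes 18 fell and 16 rose. Of 28 genes of cyclic nucleotide signalling 7 DEGs were lower and 0 higher, and 2 of the 28 passed the filter through WT alone. Prkar1b, a regulatory subunit of protein kinase A, fell from 6.09 to 7.95 CPM to 0.406 to 0.548 CPM and the phosphodiesterases Pde8b and Pde4b by 3.93 and 1.70, whereas the catalytic subunit Prkaca rose by 0.64 ± 0.09. Of 34 p53 target genes, 10 fell and 9 rose.

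The remaining lists are given by their counts. Of 7 tested cancer-testis and X-linked antigen genes 4 were lower DEGs and 0 higher, with a median of -2.81. Of these 7, 4 passed the filter through WT alone, and Mageh1 was among the DEGs (at least 13-fold lower). Of 27 Hox genes 12 rose and 8 fell with 4 lower DEGs, the falls being 5 without E5 replicate 2, and of 30 imprinted genes 6 rose and 7 fell with 4 lower DEGs and 1 higher. Of 33 glycosyltransferases of glycoprotein chains 4 DEGs were higher and 4 lower, and of 38 ion channel genes 4 were higher and 5 lower. Through WT alone passed 3 ion channel, 2 Hox, 1 imprinted and 1 glycosyltransferase genes. Stem cell factors had 3 lower and 1 higher DEGs of 23, and 5 were lower without E5 replicate 1. The Notch pathway had 2 higher and 1 lower of 21, YAP targets 1 and 3 of 28, interferon-stimulated genes 2 and 2 of 37, integrins and focal adhesion 1 and 2 of 36, and laminins 1 and 0 of 12. Leaving out single libraries moved each count in the preceding sentence by at most 1. Of 75 cytosolic ribosomal protein genes 11 rose and 3 fell with no DEG, and 26 rose without WT replicate 1.

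Genes chosen by the size or the certainty of their rise came from unrelated functions. Mme, the membrane peptidase neprilysin, measured 0.855, 0.477 and 0.395 CPM in WT and 13.4, 15.6 and 17.3 CPM in E5 (log2 fold change 4.73 ± 0.20, FDR 2.9e-08), the highest of the rule. A second ectopeptidase, Anpep, rose from 11.5, 12.3 and 13 CPM to 46.0, 47.3 and 45.3 CPM (log2 fold change 1.91 ± 0.07, FDR 5.3e-09), and the proprotein convertase Pcsk6 from 5.90 to 6.32 CPM to 28.4 to 34.0 CPM. Plcb1, a phospholipase C, rose from 0.686 to 0.850 CPM to 9.57 to 11.6 CPM, and Tnfrsf21, death receptor 6, from 7.02 to 8.16 CPM to 32.2 to 34.1 CPM. Other genes high in E5 were Slitrk5, Trim54, Klra4, Ltc4s, Prl2c2 and Tbx4, a T-box factor of lung and hindlimb development, with log2 fold changes of 3.44, 3.30, 3.14, 3.05, 2.89 and 2.88, and Dop1b, Rab7b and Epdr1, with 1.76, 1.87 and 1.53. Among the most certain falls, Oplah, the 5-oxoprolinase of glutathione recycling, went from 68.3, 70.0 and 71.4 CPM to 2.18, 2.30 and 2.39 CPM, and Cgnl1, a junction protein on chromosome 9, from 55, 61.4 and 63.3 CPM to 1.60, 1.66 and 1.46 CPM. Thsd4 and Crmp1 had log2 fold changes of -6.65 and -7.52.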

How the data were processed

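Poly(A)-selected RNA was sequenced as paired ends from 3 cultures each of WT LLC, CD47 KO clone E3 and CD47 KO clone E5. Per the study's methods, reads were checked with FastQC, trimmed with Trimmomatic and aligned with STAR to mouse GRCm39. Which program counted the reads, whether it used strand and on which annotation release are not given in the sources used here. The deposited table holds whole-number counts per gene for 50813 genes, made by the authors with no normalization, and each of its 9 columns was matched to a sample by name, leaving 0 columns unmapped.

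E5 was compared with WT on these 6 libraries alone. Genes were kept by edgeR's filterByExpr (a minimum of 10 counts scaled to library size and 15 in total), scaled by TMM and tested with edgeR's quasi-likelihood test (edgeR 4.0.16, limma 3.58.1, R 4.3.3), two-sided, with Benjamini-Hochberg FDR over all 14098 genes. CPM values are TMM-scaled. On simulated counts over 14098 genes with 200 changed, the test recovered 96 of 100 genes changed by 2 and 92 of 100 changed by 1.5 on the log2 scale, with 1 false call. E5 against E3 was taken from a fit of all 9 libraries. With 3 or fewer counts in every library of a line, a gene was treated as at the floor and its fold change given as a bound against 3 counts per library. The approximate SE was computed from the log2 fold change and the F statistic and is not one fitted by edgeR. Counting error is small for abundant genes. It is large for genes with few reads in a line, such as Cadm1 and Col6a3 in E5, and the approximate SE understates it there.

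Named genes were Cd47 and the EMT and ERK genes of the question. In each direction the 12 DEGs with the largest fold change and the 12 with the smallest p-value were added. These had an average above 1 on the log2 CPM scale and libraries that did not overlap. Each of 54 gene lists gave up to 3 highest and 3 lowest DEGs with a mean above 1 CPM in a line. Each list also gave its most abundant member by CPM per kilobase of exon in either line. The members, lists and rules were chosen with earlier results of these data known. Lists are described by counts and medians beside those of all genes, with no test of the list. Alternatives were DESeq2 1.42.0, other scalings and filters, a test against a fold-change limit, a replicate block, a 9-library fit and leaving out each library. Promoter sequences came from RefSeq (GRCm38.p6) and the guide from the study's primer list. Some genes that met the naming rule are not reported here.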

Additional observations from a re-analysis of the deposited data

Results flagged for a closer look

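Among the genes named by the rule and reported here, 28 passed the DEG limits in both clones against WT but in opposite directions, and differed between the clones by edgeR's quasi-likelihood test in the fit of all 9 libraries (31.9% of all genes passed that test). Both clones were compared with the same WT libraries, E5 in the fit of 6 libraries and E3 in the fit of all 9. A gene called on opposite sides of WT was bound to differ between the clones, so that test adds no support. The share of all genes called in opposite directions is not given here. Of the 28 genes, 16 were lower in E5 and higher in E3, and 12 the reverse. All values below are E5 minus E3 on the log2 scale, and for the 8 genes at the floor in a clone the value is the bound against 3 counts per library.

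Among matrix and adhesion genes, Bgn differed by -7.74 (mean 119 CPM in WT, 595 CPM in E3 and 2.76 CPM in E5), Mmp3 by -4.07 (mean 41.3 CPM in WT, 114 CPM in E3 and 6.71 CPM in E5), Tns1, a focal adhesion protein, by -3.31 and Col4a5 by a bound of -9.81, whereas Loxl2 differed by 6.29 (mean 3.7 CPM in WT, 0.125 CPM in E3 and 9.96 CPM in E5). X-linked genes lower in E5 were Armcx2 (bound -10.24), Tmem47 (bound -9.68), Maged2 (-9.94), Magee1 (-7.33) and Klf8 (bound -6.45), and X-linked Dusp9 was higher (2.16). Also lower in E5 were Sesn3 (bound -7.90), Slc1a3 (bound -7.07), Bmp2 (bound -6.95), Casp1 (-4.80), Ldhb (-4.26), Pdgfrb (-4.14) and Cd1d1 (-2.18).

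Higher in E5 and lower in E3 were Pcsk6 (6.55, mean 6.18 CPM in WT, 0.331 CPM in E3 and 31.3 CPM in E5) and Nefl (5.12, mean 45 CPM in WT, 3.95 CPM in E3 and 136 CPM in E5), then the sodium channel Scn9a (7.16), Tbx4 (6.38), Slitrk5 (5.25), Kcnk1 (bound 4.18), Gcnt4 (4.02), Anpep (3.71), Foxq1 (3.68) and the chloride channel Ano1 (2.82).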

How the results depend on the processing

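The falls outnumbered the rises among DEGs under every setting tried. DEGs numbered 394 higher and 768 lower with DESeq2, 414 and 803 with its size factors in edgeR, 408 and 807 with upper-quartile scaling, 511 and 1107 with no filter on low counts, and 411 to 463 and 785 to 894 on leaving out single libraries. Requiring 10 counts in every library left 336 lower DEGs, since it removes silent genes, and testing against the fold-change limit itself (glmTreat) left 176 higher and 503 lower. At an FDR under 0.05 alone, leaving out single libraries gave 2508 to 3565 rises and 2727 to 3459 falls, and fitting all 9 libraries together gave 1308 rises and 1704 falls, so small shifts are the least settled. The cause was not tested. A fit with the replicate number as a block gave 407 and 776 DEGs. The numbers did not pair the samples, as the deviations of same-numbered libraries correlated at -0.09, 0.03 and -0.15. Over the named genes and settings, 2865 calls were the same, 66 lost significance (23 of them in the 9-library fit), 25 gained it and 0 changed sign. Fn1 and Spp1 lost their calls in the 9-library fit, and of the named genes called between E5 and E3 23 lost that call on the 6 KO libraries alone and 147 kept it. In the 9-library fit the rises numbered 7 of DNA replication, 8 of sterol and fatty acid and 14 of detoxification genes, and the falls 11 of ER chaperones. List medians kept their sign under the other scalings except for p53 targets (0.01), which lie at the median of all genes. All lists share 1 clone, and no setting separates the clone from the knockout.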
